A study of Mus musculus with 6 samples.

Results

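Histone genes encode the proteins around which nuclear DNA is wound, and their transcripts were compared on 6 microarrays of mouse embryonic stem (ES) cells, 3 after transfection of a short hairpin RNA against Chd4 and 3 after a control transfection. Genes were taken by symbol. The replication-dependent class holds genes whose current or older symbol starts with Hist1h, Hist2h, Hist3h or Hist4h, and the replacement class holds those that start with H1f, H2af or H3f. The probe annotation uses current names, in which no probe begins with any of the Hist prefixes, so the older symbols of a RefSeq gene table (GRCm38.p6) were searched as well. By this rule 93 genes were members, 70 replication-dependent and 23 replacement, and 74 of them had at least 1 of the 112 member probes among the 45281 probes of the array. A total of 60 members passed the detection filter and were tested, 50 replication-dependent and 10 replacement, among 9808 genes tested of 19057 named. Each gene is given by its current symbol with the older symbol at first mention.

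In every nucleosome, pairs of the core histones H2A, H2B, H3 and H4 form the spool, and the linker histone H1 binds where DNA enters and leaves it. Replication-dependent histone genes lie in clusters, have no introns and are transcribed mainly in S phase, when new DNA has to be packaged. Most of their mRNAs end in a conserved stem-loop rather than a poly(A) tail, while some also yield polyadenylated forms in cells that leave the cell cycle. Replacement genes mostly lie apart from these clusters and mostly give polyadenylated mRNA through the cell cycle. They include genes for variants such as H3.3, H2A.Z and macroH2A that are placed into chromatin outside replication. The Chd4 protein is the remodelling motor of NuRD, a complex that moves nucleosomes and removes acetyl groups from histones.

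All cells were grown on mitomycin C-treated mouse embryonic fibroblasts in medium with LIF and 15% foetal bovine serum. The pHYPER shRNA vectors entered the cells by electroporation. Selection with puromycin began 24 h later and lasted 48 h, for the shChd4 cells and, as far as the labels tell, also for the controls. The ES cell line and the sequence carried by the control vector are not given in the sources used here, and nothing says whether feeder cells were removed. The array titles place the 3 shChd4 arrays on 1 BeadChip and the 3 control arrays on another, and a chip effect and the effect of the shRNA cannot be told apart. Arrays are numbered in accession order, as names only. Nothing states that they came from separate cultures. The p-values then cover the spread of these 6 samples alone, and that spread may be technical. Values are normalised log2 intensities, and differences are log2 fold changes (shChd4 minus control). Each has its moderated limma standard error (SE) and a p-value adjusted by Benjamini-Hochberg over the 9808 genes. A gene was called at an adjusted p under 0.05, and the number of arrays, 3 per group, limits the precision.

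The Chd4 probe gave 8.06, 7.91 and 8.33 on the shChd4 arrays, against 10.13, 10.13 and 10.17 on the control arrays. Chd4 was thus lower on every shChd4 array, at 24.3% of the control level (log2 fold change -2.04 ± 0.16, limma adjusted p = 6.33e-06). Detected probes numbered 17522, 17070 and 17141 on the shChd4 arrays, against 15817, 15909 and 16120 on the control arrays. Markers of embryonic stem cells and of fibroblasts also differed between the groups. Of those tested, 71.4% and 88.2% were called in that order, against 38.1% of all 9808 genes. Of 14 ES cell markers, all tested, 10 were called lower and none higher, with a median log2 fold change of -1.02 and summed normalised intensities of 45478 to 50515 on shChd4 arrays, against 59524 to 62511 on control arrays. Of 23 fibroblast markers, 17 were tested and 15 of them were called higher and none lower, with a median log2 fold change of 2.48. With bounds in place of the fitted values of genes undetected in controls, that median was 2.13. Their summed normalised intensity was 10441 to 14072 on shChd4 arrays, against 1824 to 2799 on control arrays. The fibroblast markers Col5a2, Postn and Fap were detected on no array, and Col1a1, Col6a2, Lum and Pdgfrb were not detected on the control arrays. These last 4 passed the detection filter through the shChd4 arrays alone. Col1a1, Lum and Pdgfrb are among the 15 called and in the 88.2%, with bounds of 4.39-, 8.64- and 1.08-fold. In such bulk RNA, fewer cells of a type and less RNA per cell cannot be told apart. The part of fibroblast RNA in the histone values below was not tested.

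Replication-dependent histone genes differed between shChd4 and control cells in both directions, and all replacement genes tested differed by less than 2-fold at their brightest probe. Among the 50 replication-dependent genes tested, 15 were called higher and 19 lower, and 16 were not called. That is 68.0% called, against 38.1% of all 9808 genes, with 30.0% called higher against 19.9% of all genes and 38.0% called lower against 18.2%. Log2 fold changes of the class spread between -1.81 and 2.41 around a median of -0.28, and the median of all genes tested was -0.05. Of the 50 genes, 8 were called and at least 2-fold higher, against 8.81% of all genes, and 7 at least 2-fold lower, against 3.82%. An eighth, H1f1, is left out of the 7 because its bound is under 2-fold. With the background left uncorrected, the 8 rises stayed at least 2-fold. Of the 7 falls, H1f5, H3c8, H4c2, H3c3 and H3c1 were then less than 2-fold, with log2 fold changes between -0.94 and -0.39. In all 34 called genes the values of the 3 shChd4 arrays did not overlap those of the 3 control arrays. Groups did not overlap in 40 of the 50 genes, against 50.3% of all genes. The threshold of detection admitted 44 of the 50 through signal on all 6 arrays and 1, H1f1, through the control arrays alone. Among the 10 replacement genes tested, 1 was called higher, 4 lower and 5 were not called. Their median log2 fold change was -0.22, and their fold changes lay between -0.65 and 0.76, with none at least 2-fold in either direction. The replication-dependent median was -0.16 without shChd4 replicate 3. The difference between the classes was not tested, and the replacement class has 10 genes. Without control replicate 1, 1 replacement gene was called lower and 2 higher, and without control replicate 2, 1 was called lower. That number was 2 without control replicate 3 and 2 without shChd4 replicate 1.

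**Figure D1:**
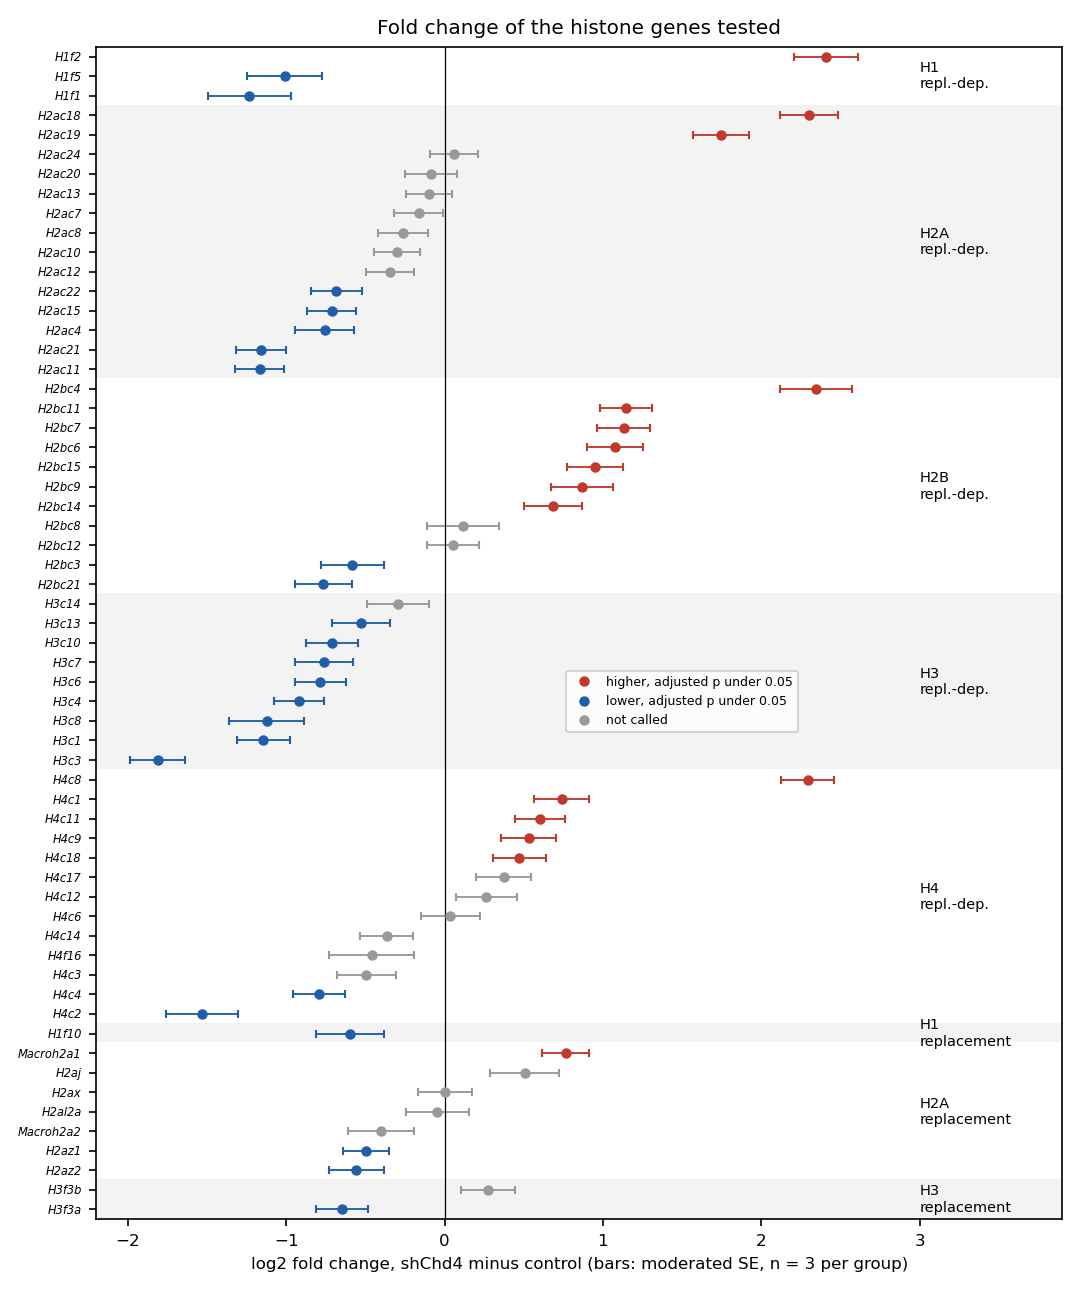
Log2 fold change (x axis, shChd4 minus control) of each of the 60 histone genes tested, grouped by histone type and class; points are means of 3 shChd4 and 3 control arrays and bars are moderated SEs. Replication-dependent genes spread between -1.81 (H3c3) and 2.41 (H1f2), with 7 of 11 H2B genes called higher and 8 of 9 H3 genes called lower, while the 10 replacement genes lie between -0.65 (H3f3a) and 0.76 (Macroh2a1). Of all genes tested, 19.9% were called higher and 18.2% lower.

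Within the replication-dependent class, most H2B genes rose and most H3 genes fell. Of 11 H2B genes, 7 were called higher and 2 lower, with a median log2 fold change of 0.87. Of 9 H3 genes, none was called higher and 8 were called lower, with a median of -0.79. The 14 H2A genes had 2 called higher and 5 lower (median -0.28), the 13 H4 genes had 5 called higher and 2 lower (median 0.26), and the 3 linker histone genes had 1 called higher and 2 lower. Differences between the types were not tested. The large cluster named Hist1, with 41 genes tested, held 13 called higher and 16 lower, and the Hist2 cluster, with 8 tested, held 2 called higher and 3 lower. That is 70.7% and 62.5% called, against 38.1% of all genes. No Hist3 gene passed the detection filter, and the single Hist4 gene, H4f16 (Hist4h4), was not called. Members of a type encode nearly the same protein from closely related sequences, and the probe sequences were not used here. A probe may therefore read more than the gene it is named for, and which transcript it reports is uncertain.

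Linker histone genes moved in both directions. H1f2 (Hist1h1c), a somatic subtype of H1, had 10.27, 9.89 and 10.49 on the shChd4 arrays, against 7.50, 8.04 and 7.89 on the control arrays. The lowest shChd4 value lay more than 1 log2 unit above the highest control value, and the log2 fold change was 2.41 ± 0.20 (limma adjusted p = 9.94e-06). A second H1f2 probe gave 2.15. The other linker genes tested fell. H1f1 (Hist1h1a) had 4.78, 4.38 and 4.48 on the shChd4 arrays, against 6.44, 5.26 and 5.66 on the control arrays. It was detected on none of the shChd4 arrays but on all 3 control arrays, so its level was at least 1.87-fold lower after Chd4 shRNA (limma adjusted p = 0.00376). H1f5 (Hist1h1b) had 5.55, 5.21 and 5.06 on the shChd4 arrays, against 6.81, 6.17 and 5.87 on the control arrays, with a log2 fold change of -1.01 ± 0.24 (adjusted p = 0.00639). Both fell without overlap between the groups. The other 3 linker genes of the class with a probe, H1f3, H1f4 and H1f6, were detected on no array.

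The upstream windows of H1f2 and H1f1, which moved in opposite directions, lie close together on chromosome 13 and are shown from RefSeq (GRCm38.p6, 250 bases before to 50 bases after the gene start, 5′ to 3′ on the gene's strand). Capitals mark CCAAT, the box bound by the factor NF-Y, and the TATA box, spelled TATAAA. The H1f2 window is chr13:23738557-23738856 on the plus strand and the H1f1 window is chr13:23763418-23763717 on the plus strand.
H1f2: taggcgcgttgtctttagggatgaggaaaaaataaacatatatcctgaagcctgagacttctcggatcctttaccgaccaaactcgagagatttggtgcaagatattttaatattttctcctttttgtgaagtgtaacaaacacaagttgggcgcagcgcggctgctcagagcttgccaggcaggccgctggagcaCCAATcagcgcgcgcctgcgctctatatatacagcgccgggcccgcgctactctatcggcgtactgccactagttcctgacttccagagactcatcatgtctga
H1f1: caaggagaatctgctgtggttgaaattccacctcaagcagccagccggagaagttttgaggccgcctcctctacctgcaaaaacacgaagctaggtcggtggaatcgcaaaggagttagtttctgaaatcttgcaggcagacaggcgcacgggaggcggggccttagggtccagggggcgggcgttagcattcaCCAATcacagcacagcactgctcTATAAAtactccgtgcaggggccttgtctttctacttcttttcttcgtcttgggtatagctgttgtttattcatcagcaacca
Both windows hold 1 CCAAT, and TATAAA is found in the H1f1 window and not in the H1f2 window.

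Among the H2A genes, a pair of Hist2 genes rose and 5 genes of the Hist1 and Hist2 clusters fell. H2ac18 (Hist2h2aa1) had 9.84, 9.65 and 10.21 on the shChd4 arrays, against 7.41, 7.63 and 7.76 on the control arrays. Its neighbour H2ac19 (Hist2h2aa2) had 9.93, 9.63 and 10.21 on the shChd4 arrays, against 8.10, 8.32 and 8.12 on the control arrays. These are near-identical copies, so their values are not independent, and both rose in every array (log2 fold changes 2.30 ± 0.18 and 1.74 ± 0.18, limma adjusted p = 7.09e-06 and 3.28e-05). Another Hist2 gene of H2A fell: H2ac21 (Hist2h2ab) had 9.11, 9.22 and 8.85 on the shChd4 arrays, against 10.31, 10.25 and 10.11 on the control arrays (log2 fold change -1.16 ± 0.16, adjusted p = 0.000255). In the Hist1 cluster, H2ac11 (Hist1h2ag) had 10.11, 10.25 and 9.95 on the shChd4 arrays, against 11.29, 11.38 and 11.15 on the control arrays. Its level after Chd4 shRNA was 44.5% of that in controls (log2 fold change -1.17 ± 0.16, adjusted p = 0.000212). H2ac15 (Hist1h2ak) had 13.55, 13.65 and 13.45 on the shChd4 arrays, against 14.30, 14.37 and 14.12 on the control arrays. H2ac22 (Hist1h2an) had 12.23, 12.52 and 12.11 on the shChd4 arrays, against 13.01, 12.95 and 12.95 on the control arrays. H2ac4 (Hist1h2ab) had 6.36, 6.66 and 6.05 on the shChd4 arrays, against 7.22, 7.17 and 6.94 on the control arrays. All 3 fell by about the same amount, with log2 fold changes of -0.71 ± 0.15, -0.68 ± 0.16 and -0.76 ± 0.18 and adjusted p of 0.00391, 0.00635 and 0.00788, and in none did the groups overlap.

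The 7 H2A genes that were not called had log2 fold changes between -0.34 (H2ac12 (Hist1h2ah)) and 0.06 (H2ac24 (Hist1h2ap)). The others were H2ac20 (Hist2h2ac) at -0.09, H2ac13 (Hist1h2ai) at -0.10, H2ac7 (Hist1h2ad) at -0.16, H2ac8 (Hist1h2ae) at -0.26 and H2ac10 (Hist1h2af) at -0.30. Most of them were among the brightest probes of the array. Probes of H2ac13, H2ac24, H2ac20, H2ac10 and H2ac7 were among the 100 brightest of all 45281 probes, with mean scanner intensities of 26825 to 29959, against 36602 for the brightest spot of any array. Of the 8 H2A genes with a mean log2 intensity above 12, none was called higher and 2 were called lower (median log2 fold change -0.23), and of the 6 at or below 12, 2 were called higher and 3 lower. The part of brightness in these fold changes was not tested. H2ac10 and H2ac12 passed the threshold in the same direction when the background was left uncorrected (log2 fold changes -0.30 and -0.34, adjusted p = 0.0174 and 0.0213).

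H2B was the type in which most genes rose. H2bc4 (Hist1h2bc) had 10.69, 9.81 and 9.96 on the shChd4 arrays, against 7.70, 7.68 and 8.02 on the control arrays. This was a log2 fold change of 2.35 ± 0.23 (limma adjusted p = 2.28e-05), with the highest of the shChd4 values on replicate 1. The next 3 rose about 2-fold. H2bc11 (Hist1h2bj) had 11.28, 10.88 and 11.18 on the shChd4 arrays, against 10.08, 9.86 and 9.96 on the control arrays. H2bc7 (Hist1h2bf) had 11.34, 11.00 and 11.47 on the shChd4 arrays, against 10.23, 10.05 and 10.13 on the control arrays. H2bc6 (Hist1h2be) had 11.69, 11.18 and 11.62 on the shChd4 arrays, against 10.53, 10.30 and 10.44 on the control arrays. Their log2 fold changes were 1.15 ± 0.16, 1.13 ± 0.17 and 1.08 ± 0.18 (adjusted p = 0.000333, 0.000420 and 0.000784), and all shChd4 values lay above all control values. A further H2bc6 probe was detected on the 3 shChd4 arrays and on no control array, which puts it at least 2.51-fold higher.

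Smaller rises followed in 3 more H2B genes. H2bc15 (Hist1h2bn) had 9.56, 9.05 and 9.17 on the shChd4 arrays, against 8.48, 8.27 and 8.19 on the control arrays. H2bc9 (Hist1h2bh) had 10.57, 9.94 and 10.49 on the shChd4 arrays, against 9.61, 9.51 and 9.28 on the control arrays. H2bc14 (Hist1h2bm) had 9.61, 9.18 and 9.74 on the shChd4 arrays, against 8.88, 8.92 and 8.67 on the control arrays. The log2 fold changes were 0.95 ± 0.18, 0.87 ± 0.20 and 0.68 ± 0.18 (limma adjusted p = 0.00184, 0.00515 and 0.0121), and in each the lowest shChd4 value was on replicate 2. The 2 H2B genes called lower were H2bc21 (Hist2h2be), an H2B gene of the Hist2 cluster, with 9.04, 8.78 and 8.93 on the shChd4 arrays, against 9.99, 9.64 and 9.43 on the control arrays, and H2bc3 (Hist1h2bb), with 5.15, 4.94 and 5.01 on the shChd4 arrays, against 5.94, 5.73 and 5.18 on the control arrays. H2bc21 had a log2 fold change of -0.77 ± 0.18 (adjusted p = 0.00628) and H2bc3 of -0.58 ± 0.20 (adjusted p = 0.0393). The H2bc3 call was not stable: the adjusted p was 0.147, 0.116, 0.0654, 0.0982 and 0.0883 without control replicate 1, control replicate 2, and shChd4 replicates 1, 2 and 3 in that order, and 0.137 without background correction. H2bc12 (Hist1h2bk) (0.05) and H2bc8 (Hist1h2bg) (0.12) were not called.

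Many H2A and H2B genes of the Hist1 cluster stand head to head and share the DNA between them. Of 14 neighbouring H2A and H2B genes, 10 pairs were divergent by RefSeq and 5 of these had both genes tested. The H2A gene had the lower log2 fold change of the pair in 5 of 5. Each of the 5 H2A values (-1.17 to -0.16) lay below each of the 5 H2B values (0.05 to 1.15). Any pairing of these genes would therefore give 5 of 5, and the count shows nothing particular to neighbours. In 2 pairs the H2A gene was called lower and the H2B gene higher, H2ac11 (-1.17) with H2bc11 (1.15) and H2ac15 (-0.71) with H2bc15 (0.95). In the H2ac7 and H2bc7 pair only H2bc7 was called, and in the H2ac12 with H2bc12 and H2ac8 with H2bc8 pairs neither was. Of the neighbours outside these 5 pairs with both genes tested, H2ac4 and H2bc3, which are not divergent, both fell (-0.76 and -0.58). H2ac20 and H2bc21, whose strands were not both known here, went the other way, with H2ac20 at -0.09 and H2bc21 lower at -0.77. The difference within pairs was not tested, and each value carries the uncertainty on near-identical copies given above.

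**Figure D2:**
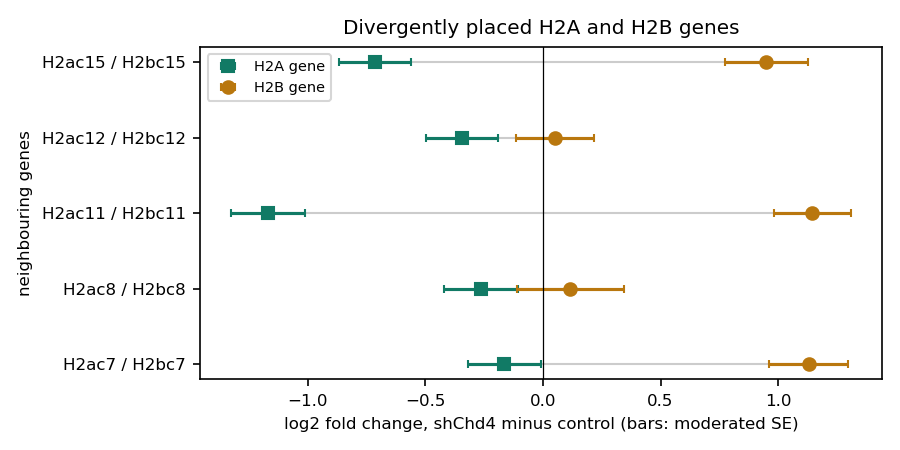
Log2 fold change (x axis, shChd4 minus control, bars are moderated SEs, 3 arrays per group) of the H2A gene (squares) and the H2B gene (circles) in each of the 5 divergent pairs with both genes tested. The H2A gene lies left of the H2B gene in 5 of 5 pairs, and the widest gap is between H2ac11 at -1.17 and H2bc11 at 1.15. Every H2A value lies left of every H2B value, so any pairing of these genes would give 5 of 5.

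The windows of H2bc11 and H2ac11, the pair with the widest gap, share 252 of their 300 bases on opposite strands. They are shown from RefSeq (GRCm38.p6), each 5′ to 3′ on its own gene's strand, H2bc11 as chr13:22042948-22043247 on the plus strand and H2ac11 as chr13:22042900-22043199 on the minus strand. Capitals mark CCAAT and its reverse complement ATTGG.
H2bc11: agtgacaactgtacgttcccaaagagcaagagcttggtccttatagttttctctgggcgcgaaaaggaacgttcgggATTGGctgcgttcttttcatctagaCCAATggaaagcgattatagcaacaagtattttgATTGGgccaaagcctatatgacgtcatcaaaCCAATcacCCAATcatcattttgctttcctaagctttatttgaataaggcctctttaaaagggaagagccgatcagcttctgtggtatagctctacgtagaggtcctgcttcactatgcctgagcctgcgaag
H2ac11: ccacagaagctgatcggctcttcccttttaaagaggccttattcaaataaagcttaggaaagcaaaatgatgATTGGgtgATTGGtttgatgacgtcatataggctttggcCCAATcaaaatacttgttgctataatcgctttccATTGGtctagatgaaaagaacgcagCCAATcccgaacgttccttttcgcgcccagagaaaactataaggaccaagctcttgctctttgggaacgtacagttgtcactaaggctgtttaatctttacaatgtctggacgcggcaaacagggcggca
Each window holds the same 5 CCAAT boxes, read from opposite sides, and neither holds TATAAA or the octamer ATTTGCAT.

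H3 genes fell together. The largest fall of any member by the main processing was in H3c3 (Hist1h3c), with 5.25, 5.70 and 5.60 on the shChd4 arrays, against 7.42, 7.42 and 7.16 on the control arrays. Its level after Chd4 shRNA was 28.5% of that in controls (log2 fold change -1.81 ± 0.17, limma adjusted p = 2.05e-05). With the background left uncorrected the log2 fold change was -0.87, a smaller fall than those of H2ac11 (-1.10), H2ac21 (-1.03) and H3c1 (-0.94). H3c1 (Hist1h3a) had 8.35, 8.08 and 8.29 on the shChd4 arrays, against 9.63, 9.19 and 9.33 on the control arrays. H3c8 (Hist1h3g) had 5.63, 5.01 and 5.47 on the shChd4 arrays, against 6.94, 6.06 and 6.48 on the control arrays. Both were at least 2-fold lower by the main processing (log2 fold changes -1.14 ± 0.17 and -1.12 ± 0.24, adjusted p = 0.000408 and 0.00356). H3c4 (Hist1h3d) had 9.49, 9.52 and 9.55 on the shChd4 arrays, against 10.64, 10.26 and 10.42 on the control arrays. H3c6 (Hist1h3e) had 9.82, 9.63 and 9.88 on the shChd4 arrays, against 10.77, 10.43 and 10.49 on the control arrays. H3c7 (Hist1h3f) had 9.69, 9.34 and 9.26 on the shChd4 arrays, against 10.46, 10.11 and 9.99 on the control arrays. Each of the 3 lay below its controls on every array (log2 fold changes -0.92 ± 0.16, -0.79 ± 0.16 and -0.76 ± 0.18, adjusted p = 0.00105, 0.00315 and 0.00748). H3c10 (Hist1h3h) had 10.33, 10.09 and 10.41 on the shChd4 arrays, against 11.19, 10.92 and 10.86 on the control arrays. H3c13 (Hist2h3b), of the Hist2 cluster, had 10.36, 10.16 and 10.43 on the shChd4 arrays, against 11.20, 10.69 and 10.65 on the control arrays. H3c10 fell (log2 fold change -0.71 ± 0.16, adjusted p = 0.00600), and H3c13 fell by a smaller amount (log2 fold change -0.53 ± 0.18, adjusted p = 0.0413). The H3c13 call was lost without control replicate 1 (log2 fold change -0.36, adjusted p = 0.164), without control replicate 2 (0.0594) and without shChd4 replicates 1, 2 and 3 (0.0786, 0.113 and 0.0543). Its neighbour H3c14 (Hist2h3c1) had a log2 fold change of -0.29 ± 0.19 and was not called.

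The window of H3c3, chr13:23745472-23745771 on the minus strand (RefSeq, GRCm38.p6), is shown for the gene with the largest fall by the main processing, with CCAAT in capitals.
H3c3: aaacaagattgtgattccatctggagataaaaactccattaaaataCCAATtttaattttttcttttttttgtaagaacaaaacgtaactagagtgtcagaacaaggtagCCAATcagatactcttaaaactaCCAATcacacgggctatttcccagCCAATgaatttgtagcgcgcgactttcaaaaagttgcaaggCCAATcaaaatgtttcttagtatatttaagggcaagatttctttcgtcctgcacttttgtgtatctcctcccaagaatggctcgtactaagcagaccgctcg
It holds 5 CCAAT boxes and no TATAAA.

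H4 genes were split, although nearly all encode the same protein. H4c8 (Hist1h4h) had 10.02, 9.80 and 10.01 on the shChd4 arrays, against 7.40, 7.70 and 7.85 on the control arrays. This was 490.5% of the control level (log2 fold change 2.29 ± 0.17, limma adjusted p = 4.14e-06), with close values on all 3 shChd4 arrays. H4c1 (Hist1h4a) had 11.33, 11.09 and 11.33 on the shChd4 arrays, against 10.68, 10.21 and 10.65 on the control arrays. H4c11 (Hist1h4j) had 9.73, 9.52 and 9.78 on the shChd4 arrays, against 9.07, 8.94 and 9.20 on the control arrays. H4c1 and H4c11 rose by less than 2-fold (log2 fold changes 0.74 ± 0.18 and 0.60 ± 0.16, adjusted p = 0.00679 and 0.0108). H4c9 (Hist1h4i) had 9.33, 8.94 and 9.46 on the shChd4 arrays, against 8.83, 8.58 and 8.74 on the control arrays. H4c18 (Hist1h4n) had 8.22, 8.06 and 8.37 on the shChd4 arrays, against 7.97, 7.57 and 7.69 on the control arrays. Both were called higher by a narrow margin (log2 fold changes 0.53 ± 0.18 and 0.47 ± 0.17, adjusted p = 0.0344 and 0.0449). Single arrays decided these smaller rises: 2 H4 genes were called higher without control replicate 2, and 3 each without control replicate 3, shChd4 replicate 1 and shChd4 replicate 3. The H4 median was 0.46, 0.16 and 0.17 without control replicates 1, 2 and 3 in that order. H4c11 had an adjusted p of 0.0534 without control replicate 2. H4c9 had adjusted p of 0.0507, 0.125, 0.0690, 0.0953 and 0.115 without control replicates 1, 2 and 3 and shChd4 replicates 1 and 3, and H4c18 had 0.167, 0.107, 0.0909 and 0.129 without control replicates 2 and 3 and shChd4 replicates 1 and 3.

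Of the H4 genes called lower, H4c2 (Hist1h4b) had 4.74, 5.34 and 4.76 on the shChd4 arrays, against 6.67, 6.05 and 6.72 on the control arrays. It was detected on 1 of 3 shChd4 arrays and on all 3 control arrays (log2 fold change -1.53 ± 0.23, limma adjusted p = 0.000399). H4c4 (Hist1h4d) had 5.99, 5.52 and 5.73 on the shChd4 arrays, against 6.54, 6.57 and 6.52 on the control arrays, a log2 fold change of -0.79 ± 0.16 (adjusted p = 0.00311). The 6 H4 genes not called were H4c17 (Hist1h4m) at 0.37, H4c12 (Hist1h4k) at 0.26, H4c6 (Hist1h4f) at 0.04, H4c14 (Hist2h4) at -0.37, H4f16 at -0.46 and H4c3 (Hist1h4c) at -0.49. H4c3 missed the threshold by little (adjusted p = 0.0569) and passed it without control replicate 3 (log2 fold change -0.63, adjusted p = 0.0332).

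The H4c8 window, chr13:23530794-23531093 on the plus strand (RefSeq, GRCm38.p6), is shown because this gene had the largest rise among the H4 genes.
H4c8: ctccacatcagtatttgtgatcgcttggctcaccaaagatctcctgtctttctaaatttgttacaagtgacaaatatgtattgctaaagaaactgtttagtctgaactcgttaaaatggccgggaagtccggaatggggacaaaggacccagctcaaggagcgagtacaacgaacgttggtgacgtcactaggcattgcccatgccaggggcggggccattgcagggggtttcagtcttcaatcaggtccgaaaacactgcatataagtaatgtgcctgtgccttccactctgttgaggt
It holds no CCAAT box, no TATA box spelled TATAAA and no octamer ATTTGCAT on either strand, and so has no capitals.

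Among replacement histones, the variant with the clearest rise was macroH2A1, an H2A with a large globular macrodomain that is abundant in differentiated cells. Macroh2a1 (H2afy) had 11.13, 11.14 and 11.20 on the shChd4 arrays, against 10.30, 10.41 and 10.47 on the control arrays. The log2 fold change was 0.76 ± 0.15 (limma adjusted p = 0.00205), and the 3 shChd4 values lay close together above all controls. Its other detected probes gave 0.64 and 2.48, and the last was detected on no control array, which puts it at least 4.68-fold higher. Its paralog Macroh2a2 (H2afy2) had 5.16, 5.08 and 5.43 on the shChd4 arrays, against 5.77, 5.93 and 5.17 on the control arrays. It was not called (log2 fold change -0.40 ± 0.21, adjusted p = 0.157) and passed as lower without control replicate 3 (-0.63, adjusted p = 0.0257).

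H2A.Z, which marks promoters and enhancers, is made from a pair of genes. H2az1 (H2afz) had 13.04, 13.01 and 12.87 on the shChd4 arrays, against 13.45, 13.43 and 13.52 on the control arrays. H2az2 (H2afv) had 9.48, 10.04 and 9.86 on the shChd4 arrays, against 10.39, 10.30 and 10.36 on the control arrays. Both fell by similar amounts (log2 fold changes -0.50 ± 0.15 and -0.56 ± 0.17, limma adjusted p = 0.0202 and 0.0262). Each call was lost on leaving out any of 4 of the 6 arrays: the adjusted p of H2az1 was 0.0531, 0.0594, 0.0581 and 0.0604 without control replicates 1, 2 and 3 and shChd4 replicate 3, and that of H2az2 was 0.0710, 0.0603, 0.0603 and 0.0909 without control replicates 1, 2 and 3 and shChd4 replicate 1. H2ax (H2afx), the variant phosphorylated beside DNA breaks, had 10.26, 10.44 and 10.74 on the shChd4 arrays, against 10.56, 10.54 and 10.33 on the control arrays. The groups overlapped, and the log2 fold change was 0.00 ± 0.17 (adjusted p = 0.996). H2aj (H2afj), a variant that accumulates in senescent human cells, had a log2 fold change of 0.51 ± 0.22 and was not called (adjusted p = 0.0895), though it passed as higher without control replicate 1 (0.66, adjusted p = 0.0495) and under scaling of the arrays by their medians (0.60, adjusted p = 0.0431). H2al2a (H2afb1), which entered by an older symbol it shares with another gene, was not called (-0.04).

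The H3.3 variant, placed at active genes by the chaperone Hira and at repeats by Daxx and Atrx, is encoded identically by H3f3a and H3f3b. H3f3a had 11.50, 11.24 and 11.67 on the shChd4 arrays, against 12.22, 12.15 and 11.99 on the control arrays. H3f3b had 12.15, 11.84 and 12.35 on the shChd4 arrays, against 11.96, 11.72 and 11.84 on the control arrays. H3f3a fell (log2 fold change -0.65 ± 0.17, limma adjusted p = 0.0101) and its second probe gave -0.83, whereas H3f3b had overlapping groups and was not called (log2 fold change 0.27 ± 0.17, adjusted p = 0.238). The difference between these 2 genes was not tested. H1f10 (H1fx), a linker histone gene outside the clusters, had 6.81, 7.57 and 7.57 on the shChd4 arrays, against 7.73, 8.06 and 7.96 on the control arrays. Its fall was at the edge of the threshold (log2 fold change -0.60 ± 0.22, adjusted p = 0.0481) and was lost without control replicate 1, 2 or 3 (adjusted p = 0.0521, 0.144 and 0.106) and without shChd4 replicate 1 (log2 fold change -0.35, adjusted p = 0.160). H1f0, the linker histone best known from cells that stop dividing, has no probe with its symbol in the annotation used.

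**Figure D3:**
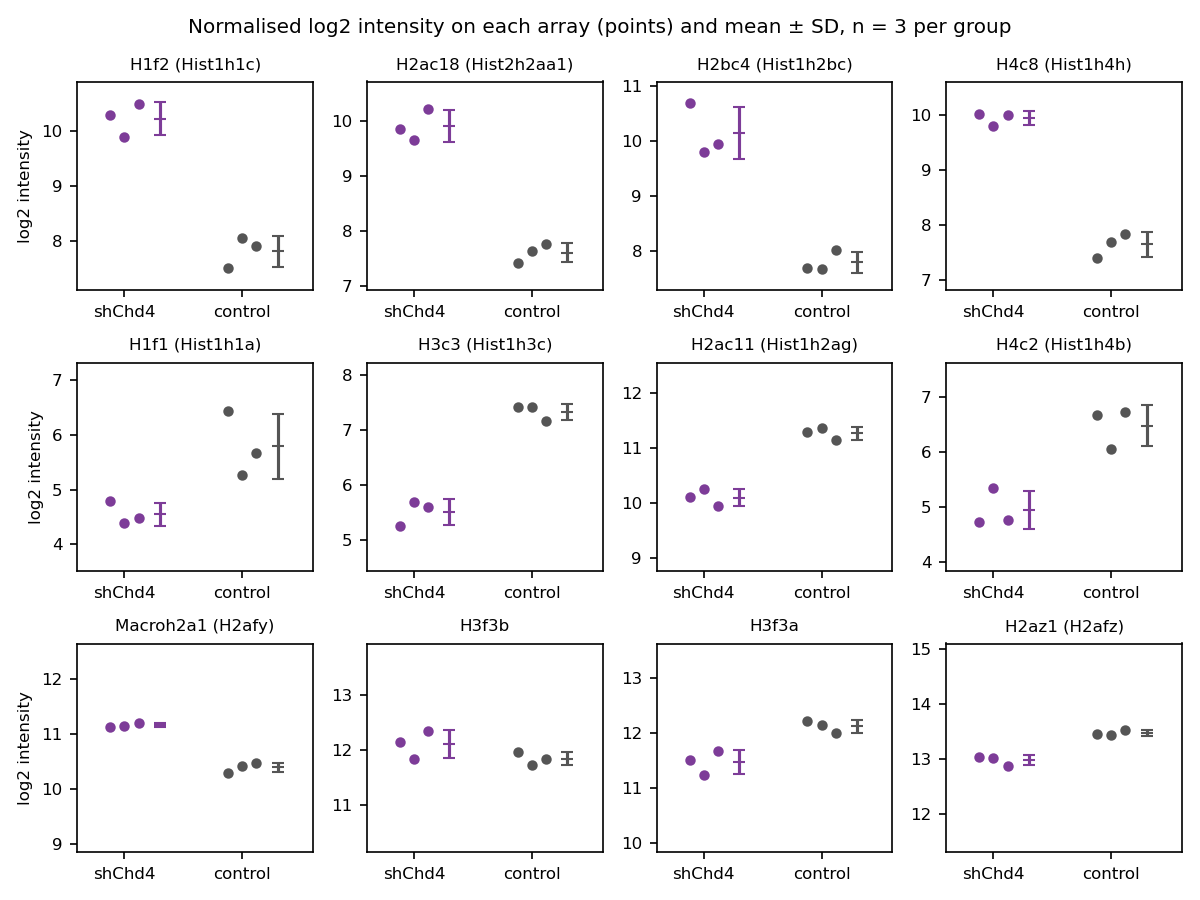
Normalised log2 intensity (y axis) on each of the 3 shChd4 and 3 control arrays (points), with mean ± SD beside them, for 8 replication-dependent genes (upper rows) and 4 replacement genes (lowest row). H1f2, H2ac18, H2bc4 and H4c8 lie above all their controls, H1f1, H3c3, H2ac11 and H4c2 below all of theirs, Macroh2a1 above, H3f3a and H2az1 below, and the H3f3b groups overlap.

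The extent of the changes differed between the shChd4 arrays, most for the genes that rose. Relative to the control mean, the median H2B gene was at 1.11, 0.47 and 0.92 (log2) on shChd4 replicates 1, 2 and 3, against 0.11, -0.05 and -0.13 on the control arrays. The median H3 gene was at -0.74, -0.92 and -0.89, against 0.24, -0.13 and -0.13, and the median H4 gene at 0.38, 0.10 and 0.31, against 0.17, -0.14 and 0.02. The 15 replication-dependent genes called higher all had their lowest shChd4 value on replicate 2, as did 56.4% of the 1947 genes called higher among all genes. Of the 19 called lower, 9 were lowest on replicate 2, or 47.4%, against 21.4% of the 1788 genes called lower among all genes. The fibroblast markers were also least abundant on that array among the shChd4 arrays, with summed intensities of 13607, 10441 and 14072 on replicates 1, 2 and 3. The part of that array's RNA make-up in the histone values was not tested. Macroh2a1 had nearly equal values on shChd4 replicates 1 and 2 (11.13 and 11.14) and 11.20 on replicate 3.

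**Figure D4:**
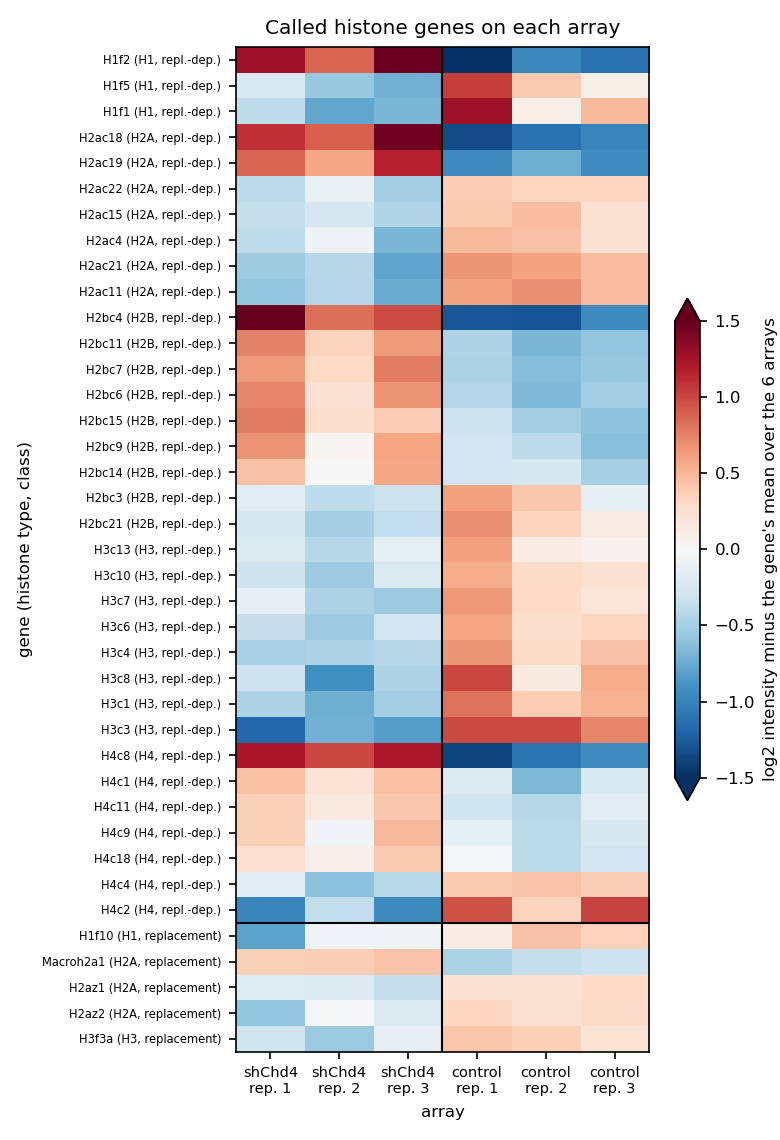
Log2 intensity of each of the 39 called histone genes (rows, by histone type and class) on each array (columns, shChd4 left, control right), as the difference from the gene's mean over the 6 arrays; red is higher, blue lower, and the scale ends at 1.5. H1f2, H2ac18, H2bc4 and H4c8 change most among the rises, and shChd4 replicate 2 is the palest of the 3 shChd4 columns among the replication-dependent genes called higher.

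Where a gene had more than 1 detected probe, the probes mostly pointed the same way. Of 21 such members, 16 had probes of 1 sign, 5 had both signs (H2ac20, H3c14, H3c7, H4c12 and H4c6) and none had calls in opposite directions. Probes of H2ac20 differed most among the uncalled genes: the brightest gave -0.09 and a dimmer one 1.25, which was called higher. The brightest H2bc12 probe gave 0.05 and a second 1.20, also called higher. In contrast, dimmer probes of H2ac7, H2ac10 and H2ac12 were called lower (log2 fold changes -0.54, -0.53 and -0.62, adjusted p = 0.0152, 0.0181 and 0.00849 over all detected probes) beside uncalled brightest probes. A second H3c7 probe gave 0.37 and another H2ac18 probe 0.12, both uncalled beside called brightest probes. The 3 probes of H3c10 gave -0.71, -0.99 and -1.69, all called lower. The brightest probe stood for its gene in all counts above.

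**Figure D5:**
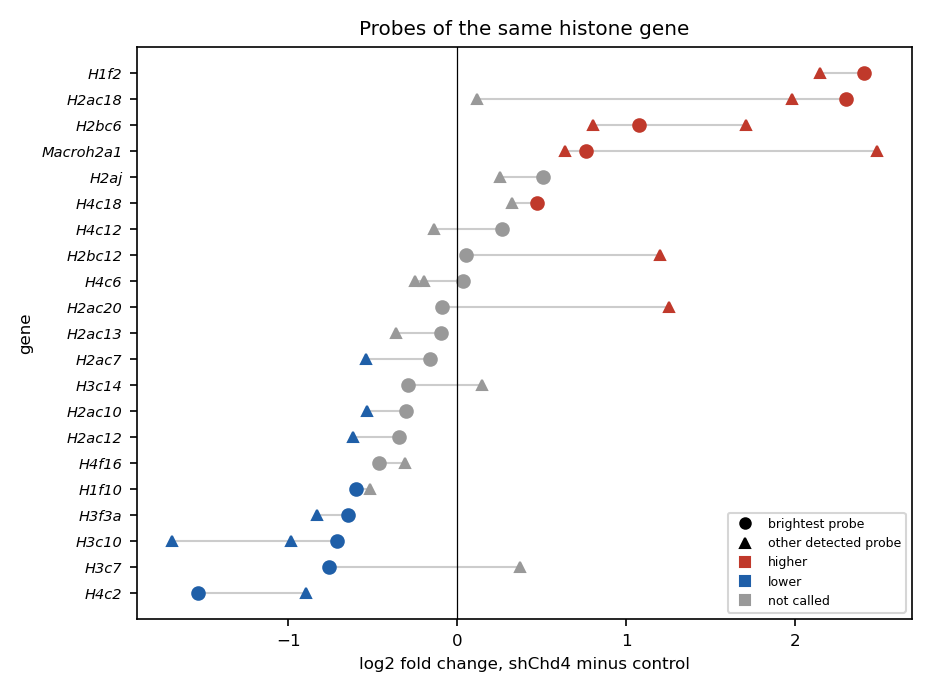
Log2 fold change (x axis, shChd4 minus control) of every detected probe of the 21 histone genes with at least 2 detected probes; circles are the brightest probe, which stood for the gene, and triangles the others, coloured by the limma call. No gene has probes called in opposite directions. Beside an uncalled brightest probe, H2bc12 and H2ac20 have a second probe called higher, at 1.20 and 1.25, and H2ac7, H2ac10 and H2ac12 have a second probe called lower, at -0.54, -0.53 and -0.62.

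The labelling kit primes cDNA with oligo(dT), so an mRNA that ends in a stem-loop without a poly(A) tail is copied poorly. Whether a replication-dependent transcript changed in level or in its polyadenylated share cannot be told apart on these arrays. A list of 14 replication-dependent genes known, mostly in human cells, to give polyadenylated mRNA in differentiating cells was counted by itself. Of these, 13 had a symbol in the RefSeq table and a probe, and 10 were tested: 8 were called higher, 1 lower (H2bc21) and 1 was not called (H2bc12), with a median log2 fold change of 1.45. The near-identical copies H2ac18 and H2ac19 are both counted in the 8. The other 40 replication-dependent genes had 7 called higher, 18 lower and 15 not called, with a median of -0.41. Called higher were 80.0% of the list and 17.5% of the others, against 19.9% of all genes. Called lower were 10.0% and 45.0%, against 18.2%. The list was written with earlier results of these data known, mouse and human letters do not always mark the same gene, and the difference between the lists was not tested. H1f2, H2bc4, H2ac18, H2ac19 and H4c8, the 5 largest rises of all members, were on the list.

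Promoter windows were searched on both strands for CCAAT, for the TATA box TATAAA and for ATTTGCAT, the octamer bound by Oct factors at H2B genes, and a match is a description and not a site. None of these motifs contains another. Among 27025 RefSeq windows of 300 bases (GRCm38.p6), 37.8% held CCAAT, 14.1% TATAAA and 1.74% ATTTGCAT. Of the 70 replication-dependent genes, 62 had a window, and 85.5%, 56.5% and 22.6% of these held the motifs in that order. Of the 23 replacement genes, 17 had a window, with 64.7%, 11.8% and 5.88%. Among the 54 windows of replication-dependent genes with a probe, ATTTGCAT was in 7 of 12 H2B windows, 7 of 17 H2A windows and none of the H1, H3 and H4 windows, while CCAAT was in 3 of 12 H4 windows. Windows of divergent H2A and H2B neighbours can overlap, as in the pair shown above, so the same match may count for both types. Genes called higher held CCAAT in 10 of 14 windows, TATAAA in 7 and ATTTGCAT in 2. Genes called lower held them in 15, 10 and 2 of 16 windows, and the difference was not tested.

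Most S phase genes tested fell in shChd4 cells. Of 22 S phase and DNA replication genes, 18 were tested, and 15 were called lower and none higher, with a median log2 fold change of -0.68. That is 83.3% called lower, against 18.2% of all genes. Gins2, a subunit of the replicative helicase, had -1.42 ± 0.17. Cdc6, which loads that helicase, had -1.40 ± 0.19. The nucleotide synthesis enzymes Tk1 and Tyms had -1.39 ± 0.21 and -0.94 ± 0.15. The limma adjusted p of these 4 was at most 0.000572. Ccna2, Pola1 and Prim1 were detected on no array.

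Histone genes depend on a set of factors for the transcription and 3′ end of their mRNA. Of 20 such genes, 14 were tested, and 5 were called lower and none higher, with a median log2 fold change of -0.27. The share called in either direction, 35.7%, was close to the 38.1% of all genes. As every call was lower, 35.7% were called lower, against 18.2% of all genes, and 19.9% of all genes were called higher. The difference in share was not tested. Cdc25a, the phosphatase that activates Cdk2, had -0.76 ± 0.16 (limma adjusted p = 0.00346). Coil, the scaffold of Cajal bodies, had -0.57 ± 0.15 (adjusted p = 0.0124), and 0.0528 without control replicate 2. Hinfp, the transcription factor of H4 genes, had -0.55 ± 0.15 (adjusted p = 0.0161), and 0.0562 without control replicate 1. Ccne1, the cyclin that with Cdk2 turns on histone transcription, had -0.62 ± 0.19 (adjusted p = 0.0220), and 0.0595, 0.0579 and 0.0756 without control replicates 1 and 2 and shChd4 replicate 3. Slbp, which binds the stem-loop, and Npat and Casp8ap2, which organise transcription at histone clusters, were detected on no array and were not tested.

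Of 20 genes for histone chaperones and acetylation of new histones, 16 were tested, and 6 were called lower and none higher, with a median log2 fold change of -0.39. The share called in either direction, 37.5%, was again close to 38.1%. Here too every call was lower, so 37.5% were called lower, against 18.2% of all genes. This difference was not tested either. Rbbp4, a histone-binding subunit shared by NuRD and the chromatin assembly factor CAF-1, had -1.05 ± 0.16, and Chaf1b, another CAF-1 subunit, had -1.05 ± 0.17 (limma adjusted p = 0.000451 and 0.000903). Anp32e, which removes H2A.Z, had -0.79 ± 0.17 (adjusted p = 0.00478), and Set, which binds free histones, had -0.65 ± 0.16 (adjusted p = 0.00947). Of 4 genes tested for the centromeric histone and its loading, Oip5 was called lower (-0.75 ± 0.16, adjusted p = 0.00425). That is 25.0% called, against 38.1% of all genes. Cenpa, the centromeric H3 itself, was not called (-0.24), nor were Mis18a (0.16) and Hjurp (-0.05).

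Of the members with a probe, 14 were not tested. The 10 replication-dependent ones were H1f3, H1f4, H1f6, H2ac1, H2ac6, H2aw, H2bc1, H2bc18, H2bu1-ps and H2bu2, of which 9 were detected on no array and H2ac1 on 1. The 4 replacement ones, H1f7, H1f8, H2ab2 and Macroh2a3, were detected on no array. Several of these, such as H1f6, H1f7, H2ac1 and H2bc1, encode testis histones and H1f8 the oocyte linker histone. A further 10 replication-dependent and 9 replacement genes had no probe with their symbol. Of 6 germ cell markers, 3 were tested and 1, Tex101, was called higher (0.75 ± 0.15, limma adjusted p = 0.00232). That is 33.3% called, against 38.1% of all genes. Tex101 was not detected on the control arrays, which puts it at least 1.24-fold higher. Without background correction its log2 fold change was 0.23. Dazl (0.22) and Ddx4 (0.11) were not called. The sperm chromatin genes Prm1, Tnp1, Tnp2 and Hils1 had probes and were detected on no array.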

How the data were processed

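The comparison used 3 shChd4 and 3 control arrays (Illumina MouseWG-6). Of 45281 probes, the deposited scanner table gives the linear intensity on every array. It also has detection p-values, per the file headers. The submitters' processing notes name GenomeStudio. Its array medians lay between 110.9 and 118.9, so no background had been subtracted. The authors' deposited series matrix holds intensity values whose array medians lie between 115.16 and 115.19, with a rank correlation of 1 to the scanner values. They were used as an alternative.

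The neqc function of limma 3.58.1 (R 4.3.3) set the deposited intensities on a log2 scale: normexp background correction that read the detection p-values, offset 16, then quantile normalisation. The platform annotation gave 34885 probes 1 gene symbol, and 34807 of these matched the RefSeq gene table of GRCm38.p6. The brightest probe stood for each gene and was kept if detected (p under 0.05) on at least 3 arrays. Groups were fitted with lmFit and eBayes, adjusted by Benjamini-Hochberg over 9808 genes. For a probe not detected on any array of a group, the fold is a bound: the brighter group's mean is set against a floor for each dim array, which is its lowest detected signal, or the probe's own where higher. The steps were also run on simulated arrays in which only probes well above background were changed. That run does not cover members close to background.

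The rule on symbols, read literally, reaches only 14 probes of the replacement class and none of the other, so it was applied to older symbols too. Every member tested was named, with values on each array for the called ones and for chosen variants, and up to 4 genes of each further list, with Slbp, Npat, Casp8ap2 and Hinfp. Values on each array for Macroh2a2, and values of second probes, were chosen after they were seen. Members and lists were chosen with earlier results of these data known. Alternatives were the background step, the normalisation, the authors' values, the detection filter, the choice of probe and leaving out each array.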

Additional observations from a re-analysis of the deposited data

How the results depend on the processing

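Of the 39 called members, 31 kept their call in every alternative in which they were tested and 8 lost it in at least 1, H1f10, H2az1, H2az2, H2bc3, H3c13, H4c9, H4c11 and H4c18, and 5 uncalled ones (Macroh2a2, H2aj, H2ac12, H2ac10 and H4c3) passed in at least 1. None reversed a call. These counts follow 1 probe per gene. They leave out the other probes of H2ac20, H2bc12 and H2ac7 that were called, and those of H3c7 and H2ac18 that were not. Beside the arrays named above, median scaling gave adjusted p of 0.0527 for H1f10, 0.0988 for H2bc3, 0.0547 for H4c9, 0.0532 for H4c18 and 0.112 for Hinfp, and testing without a detection filter gave 0.118, 0.0879, 0.0545 and 0.0535 for the first 4 and 0.0726 for H3c13. Without background correction the falls of dim genes were smaller (H1f1 -0.43, H1f5 -0.39, H2ac4 -0.40, H3c3 -0.87). Across all genes, testing each detected probe by itself called 2701 lower. The replication-dependent median was -0.13 over genes detected on all 6 arrays and with the background left in, in the scanner or the authors' values, -0.093 without a filter, and -0.30 to -0.16 when arrays were left out. The replacement class had 2 genes called higher with median scaling, 3 by single probes and 1 to 2 with an array left out, and 1 to 4 called lower with an array left out. Its median was -0.073 with the background left in, in either set of values, -0.036 without a filter, -0.40 over genes detected on all 6 arrays or at a detection p under 0.01, -0.045 by single probes, -0.30 to -0.15 with an array left out, and -0.62 by current symbols alone, an alternative chosen after seeing the data. The H4 median was -0.14 by single probes. The cause of these shifts was not tested. Uncalled genes near 0 changed sign: with median scaling H2al2a gave 0.044, H2ax -0.073, H2ac24 -0.12 and H2bc12 -0.0050. With an array left out the values spread from -0.25 to 0.11 for H2al2a, -0.13 to 0.11 for H2ax, -0.21 to 0.017 for H2ac20, -0.0063 to 0.13 for H2ac24, -0.031 to 0.16 for H2bc12, -0.041 to 0.35 for H2bc8, -0.12 to 0.17 for H4c6, -0.17 to 0.024 for Hjurp, -0.12 to 0.41 for Dazl and -0.066 to 0.23 for Ddx4. No paired analysis was possible because the labels give no replicate numbers, and the numbers used here follow accession order and pair nothing. Members close to background, among them H1f1 and H4c2, have bounds or coarse values only.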
